A study of Mus musculus with 10 samples.

Results

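The 10 genes described here are products of secretory cells of the intestinal lining, measured in RNA-seq libraries of islets of the mouse pancreas, where insulin and glucagon are made. They were 10 of the 52178 gene rows of the deposited table, found by matching Ensembl identifiers to gene symbols. Of these, 5 are products of Paneth cells (Defa24, Defa30, Lyz1, Itln1 and Ang4) and 5 of goblet cells (Muc2, Tff3, Fcgbp, Clca1 and Agr2). The genes were picked with the difference between exercise and sedentary islets already known, so levels and fold changes for that difference are given as a description. Where their calls in the fit of all genes are counted, the count is no test of these genes. All 10 passed the filter on low counts.

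Islets came from male C57Bl/6 retired breeder mice. The sedentary group had 5 libraries (sedentary 1 to 5). The exercise group had 5 libraries (exercise 6 to 10) from mice that ran on a treadmill at 17 cm/s on a 5 degree slope, 1 h daily on 5 days of each of 2 weeks, having had 3 days to get used to it. In both groups islets were released with collagenase injected into the pancreatic duct, picked by hand and placed in medium with 11 mM glucose. The labels name no genetic change in either group and give no age. The labels do not say whether each library is 1 animal, so spreads between libraries may be partly technical.

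Paneth cells sit at the base of the crypts of the small intestine and release antimicrobial proteins, among them alpha-defensins and lysozyme, into the crypt. Goblet cells are found along the crypts and villi and in the large intestine, and release the gel-forming mucin Muc2 together with proteins that assemble, cross-link or process mucus. Neither cell type is a resident of pancreatic islets.

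The label was checked against marker genes of the tissue. Levels are given as CPM, the counts in each 1000000 of a library whose size was corrected with edgeR's TMM factor (trimmed mean of M-values). Library totals lay between 15081768 and 23222563 counts. The 12 islet endocrine markers summed to 9180 CPM in sedentary 1 and 42300 CPM in sedentary 2, against 150200 to 222500 CPM in sedentary 3 to 5 and 150900 to 207500 CPM in the exercise libraries. Sedentary 1 and 2 therefore stood apart from the other libraries and were low in islet RNA. The 20 enterocyte markers summed to between 4140 and 27870 CPM in sedentary and between 336.5 and 1044 CPM in exercise libraries, with sedentary 1 and 2 the highest. All 20 fell in exercise (edgeR adjusted p under 0.05), with a median log2 fold change of -4.30 (-3.04 without sedentary 1 and 2). Of 4 tested stomach markers 2 fell, with a median of -5.03 (-3.10 without sedentary 1 and 2). Among all tested genes 11.4% fell. The 15 acinar markers, of the enzyme-secreting pancreas, summed to 57150 to 118400 CPM in sedentary and 127600 to 339100 CPM in exercise libraries. The part of these marker levels in the values below was not tested, and in bulk RNA fewer cells of a type and less RNA per cell cannot be told apart.

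Defa24 and Defa30 are shown first because they are near copies, which decides how their counts can be read. Both encode alpha-defensins (cryptdins), small cysteine-rich peptides that disrupt bacterial membranes, and both lie in the alpha-defensin cluster of chromosome 8. Their coding sequences of 279 bases, without the stop codon, in the GENCODE M21 annotation of GRCm38 differed at 4 positions (98.6% identity), printed in capitals.
Defa24: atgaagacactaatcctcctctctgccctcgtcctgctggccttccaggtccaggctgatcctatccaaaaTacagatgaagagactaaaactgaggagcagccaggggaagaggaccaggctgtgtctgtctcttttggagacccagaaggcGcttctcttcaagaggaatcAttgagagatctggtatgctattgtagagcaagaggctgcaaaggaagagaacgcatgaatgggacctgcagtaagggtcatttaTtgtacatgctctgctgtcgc
Defa30: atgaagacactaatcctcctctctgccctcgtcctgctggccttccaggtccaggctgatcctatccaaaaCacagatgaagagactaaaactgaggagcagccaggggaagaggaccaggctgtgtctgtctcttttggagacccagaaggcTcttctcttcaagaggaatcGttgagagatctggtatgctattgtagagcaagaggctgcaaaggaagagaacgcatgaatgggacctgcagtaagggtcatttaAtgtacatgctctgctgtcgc
Counted from the A of the start codon, Defa24 to Defa30 read T72C, G154T, A174G and T259A. Of the 31-base windows of the Defa24 transcript, 57.1% also occurred in transcripts of other genes, and of those of Defa30, 70.4%. The division of reads between them is therefore an estimate, and their counts were not whole numbers in 5 of 10 libraries each (tolerance 0.001).

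Lysozyme poses the same question between cell types. Lyz1 encodes the Paneth cell lysozyme and Lyz2, its neighbour on chromosome 10, the lysozyme of macrophages. Their coding sequences of 444 bases, without the stop codon, differed at 22 positions (95% identity). The first 300 bases are printed, with the 20 differences they hold in capitals.
Lyz1: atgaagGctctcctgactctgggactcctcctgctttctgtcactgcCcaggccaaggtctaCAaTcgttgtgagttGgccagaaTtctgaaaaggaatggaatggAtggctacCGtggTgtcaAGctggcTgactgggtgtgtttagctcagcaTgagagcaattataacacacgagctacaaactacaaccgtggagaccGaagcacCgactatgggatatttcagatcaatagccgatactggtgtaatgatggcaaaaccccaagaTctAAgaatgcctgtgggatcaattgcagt
Lyz2: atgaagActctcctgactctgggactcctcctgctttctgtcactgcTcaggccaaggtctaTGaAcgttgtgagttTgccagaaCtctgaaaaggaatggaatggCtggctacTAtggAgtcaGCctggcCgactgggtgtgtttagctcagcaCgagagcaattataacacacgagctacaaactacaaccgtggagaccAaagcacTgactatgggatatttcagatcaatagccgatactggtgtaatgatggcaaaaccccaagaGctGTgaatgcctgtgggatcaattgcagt
Of the 31-base windows of the Lyz1 transcript, 34.2% occurred in Lyz2, the only other gene to hold any. Both lysozymes had counts that were not whole in 10 of 10 libraries. Muc2, Tff3, Clca1 and Agr2 shared 0 windows with other genes, Itln1 3.87%, Ang4 13.8% and Fcgbp 15.7%, the last with its neighbour 9530053A07Rik.

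The alpha-defensins were abundant in sedentary 2, lower in the other sedentary libraries and close to 0 in 4 of 5 exercise libraries. Defa24 stood at 10.1, 288, 27.9, 7.59 and 47.9 CPM in sedentary 1 to 5 and at 3.68, 0.065, 0.115, 0.0643 and 0 CPM in exercise 6 to 10. The groups did not overlap, and exercise 6 alone held 94.3% of the 70 Defa24 counts of the exercise group. Defa30 had 4.53, 137, 12.1, 3.75 and 20.2 CPM in sedentary 1 to 5 and 1.51, 0, 0.172, 0 and 0.0487 CPM in exercise 6 to 10, again without overlap. The log2 fold change, exercise minus sedentary, was -6.57 ± 1.55 (SE) for Defa24 and -6.63 ± 1.46 (SE) for Defa30 in the edgeR fit of all 15298 tested genes.

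Because copies share reads, the rows of all 39 genes with a Defa symbol were also summed, 22 of which had a count. The sums were 451, 15179, 1381, 517 and 2718 counts in sedentary 1 to 5 and 196, 4, 8, 3 and 1 counts in exercise 6 to 10. Scaled to library size the sums were 26.9, 828, 76.5, 22.3 and 133 CPM in sedentary 1 to 5. They were 10.9, 0.26, 0.46, 0.193 and 0.0487 CPM in exercise 6 to 10. In CPM the family as a whole thus showed the same order of libraries as Defa24. Defa24 made up between 34.0 and 37.5% of the sum in the sedentary libraries and 33.7% in exercise 6. There were 40.9 to 49.4 Defa30 counts per 100 Defa24 counts in these 6 libraries, so the 2 copies were estimated in a nearly fixed proportion while their level varied 38.0-fold (Defa24) among sedentary libraries.

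Itln1 and Ang4, a pair of Paneth products outside the defensin family, followed the same libraries. Itln1, encoding the lectin intelectin-1 that binds microbial sugars, had 6.80, 154, 15.2, 5.48 and 22.1 CPM in sedentary 1 to 5. It had 2.34 CPM in exercise 6 and 0 counts in exercise 7, 8, 9 and 10, where a count of 0 allows up to 0.195, 0.172, 0.193 and 0.146 CPM (3 counts, counting error only). Ang4, encoding angiogenin-4, a microbe-killing ribonuclease, had 0.895, 20.6, 2.33, 0.992 and 2.69 CPM in sedentary 1 to 5 and 0.223, 0, 0, 0 and 0.0487 CPM in exercise 6 to 10. Ang4 rested on 512 counts in the sedentary and 5 in the exercise group, the fewest of the 10 genes. The log2 fold changes were -6.39 ± 1.55 for Itln1 and -6.43 ± 1.30 for Ang4 (SE).

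Lyz1 was the exception among the Paneth products, since it did not approach 0 in any library. It had 27.7, 505, 58.8, 23.8 and 84.6 CPM in sedentary 1 to 5 and 16.5, 3.31, 6.15, 9.32 and 7.02 CPM in exercise 6 to 10. The groups did not overlap, but the highest exercise library lay close below the lowest sedentary one, and the log2 fold change of -4.05 ± 0.92 (SE) was the smallest of the 5. Lyz2 had 118, 12.3, 120, 167 and 413 CPM in sedentary 1 to 5 and 181, 60.3, 97.9, 121 and 128 CPM in exercise 6 to 10, so that its groups overlapped. Lyz1 took 97.6% of the counts of both lysozymes in sedentary 2 (95% exact binomial interval 97.3 to 97.9%). In the other sedentary libraries its share was 12.5 to 32.9%, in exercise 6 8.34% (7.45 to 9.30%) and in exercise 7 to 10 between 5.21 and 7.17%. In exercise 7 to 10 the share thus varied little while Itln1 was at 0. Of the 10 macrophage markers 0 fell and 1 rose (Cd14, log2 fold change 2.11, edgeR adjusted p = 0.02), where 11.4% of all tested genes fell and 2.44% rose. Their summed level ranged from 52.88 to 695.8 CPM in sedentary and from 188.1 to 519.5 CPM in exercise libraries. How many Lyz1 counts came from Lyz2 transcripts was not tested.

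**Figure D1:**
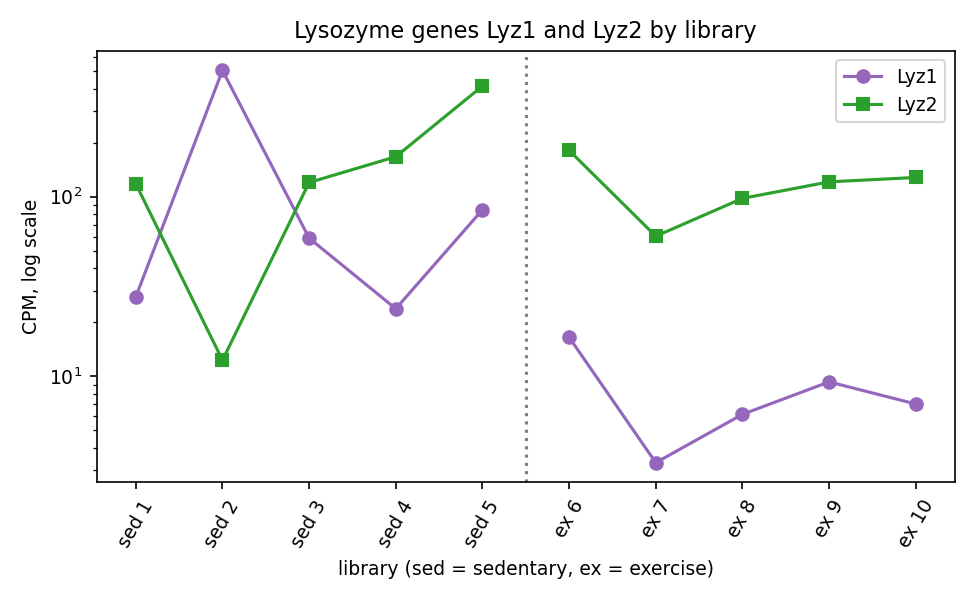
CPM (log axis) of the lysozyme genes Lyz1 (circles) and Lyz2 (squares) in each of the 5 sedentary and 5 exercise libraries; lines join symbols of a group to guide the eye and imply no order. Lyz1 exceeds Lyz2 in sedentary 2 alone (505 against 12.3 CPM), and in exercise 7 to 10 it lies far below Lyz2.

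The goblet cell products were also lower in exercise, but remained countable in every library. Muc2, encoding the gel-forming mucin of intestinal mucus, had 132, 258, 34.2, 18.2 and 28.7 CPM in sedentary 1 to 5 and 4.24, 1.75, 2.81, 0.772 and 9.80 CPM in exercise 6 to 10. The groups did not overlap, and exercise 10, not exercise 6, was the highest exercise library. Fcgbp, encoding a large protein that binds the Fc part of IgG and associates with Muc2 in mucus, had 412, 1408, 197, 109 and 201 CPM in sedentary and 24.0, 7.15, 13.7, 2.76 and 52.8 CPM in exercise libraries. The log2 fold changes were -4.59 ± 0.93 for Muc2 and -4.53 ± 0.97 for Fcgbp (SE).

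Tff3 and Clca1 repeated the high value in exercise 10. Tff3, encoding a trefoil peptide that protects and repairs the epithelium, had 76.4, 259, 38.0, 22.6 and 49.2 CPM in sedentary 1 to 5 and 5.47, 1.23, 3.39, 0.514 and 10.6 CPM in exercise 6 to 10 (log2 fold change -4.38 ± 0.92 SE). Clca1, encoding a secreted metalloprotease of mucus, had 99.5, 303, 49.9, 43.3 and 52.5 CPM in sedentary and 5.08, 2.92, 3.79, 0.321 and 24.7 CPM in exercise libraries (log2 fold change -3.89 ± 0.99 SE). Exercise 10 held 71.0% of the Clca1 counts of the exercise group, and 54.2 to 56.9% of those of Muc2, Tff3 and Fcgbp.

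Agr2, encoding a disulfide isomerase of the endoplasmic reticulum that is needed to make Muc2, differed from the other goblet products in exercise 10. Its levels were 48.7, 239, 34.2, 10.0 and 42.3 CPM in sedentary 1 to 5 and 4.18, 1.17, 1.61, 0.643 and 1.36 CPM in exercise 6 to 10 (log2 fold change -5.37 ± 0.91 SE). Exercise 6, not exercise 10, was the highest exercise library for Agr2. In counts summed over the 5 goblet products, Agr2 took 1.37% in exercise 10 and 4.95 to 12.8% in the other libraries. Clca1 took 24.9% in exercise 10, its largest share, and 6.41 to 21.3% in the others. Fcgbp was steady at 50.2 to 57.1% in all 10 libraries. On the centred log2 scale Agr2 also lay nearer to the mean profile of the Paneth products (root mean square distance 0.78 over 10 libraries) than to that of the other 4 goblet products (0.93), which held for none of Muc2, Tff3, Fcgbp and Clca1 (0.18 to 0.69 to the other goblet products, 1.35 to 1.73 to the Paneth products). The reverse held for Lyz1, which lay 1.34 from the goblet products and 1.47 from the other 4 Paneth products.

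**Figure D2:**
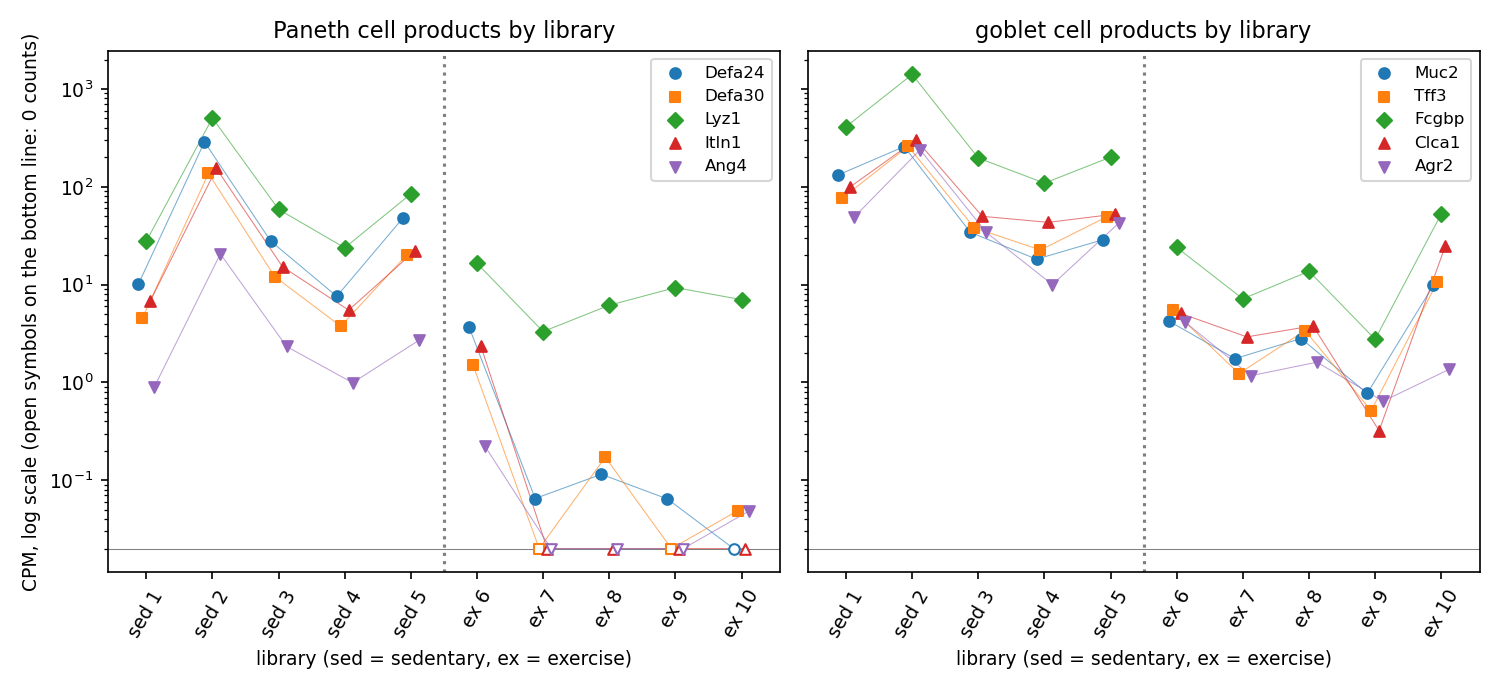
CPM (log axis) of the 5 Paneth cell products (left) and the 5 goblet cell products (right) in each library; open symbols on the bottom line mark 0 counts, and thin lines join symbols of a gene within a group to guide the eye. Sedentary 2 is the highest library for all 10 genes, exercise 6 the highest exercise library for the Paneth products, and exercise 10 for Muc2, Tff3, Fcgbp and Clca1.

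All 10 genes had every exercise library below every sedentary library, as had 11.4% of all tested genes, and all 10 were past an adjusted p of 0.05 in edgeR's quasi-likelihood fit, in which 11.4% of tested genes were lower and 2.44% higher in exercise. Of the genes called, 82.4% were lower, and 96.5% with library totals as the only scaling. Nothing is read from these counts, since the genes were chosen on this contrast. The median log2 fold change was -6.43 over the Paneth and -4.53 over the goblet products, against a median of 0 for all tested genes. Without sedentary 1 and 2, the pair low in islet RNA, the fold changes were smaller, between -5.09 and -2.70 for the Paneth and between -3.97 and -2.66 for the goblet products. In that fit 9 of the 10 genes were past the threshold, Clca1 being the other, where 8.69% of tested genes were lower and 4.1% higher. Leaving out 1 exercise library lowered the count past the threshold while most fold changes stayed about as large. The count was 6 without exercise 7 (Defa24, Lyz1, Itln1 and Clca1 not past it), where Defa24 had -6.29, Lyz1 -3.84, Itln1 -6.09 and Clca1 -3.68. It was 5 without exercise 8 (Defa30 in addition). It was 7 without exercise 9 or without exercise 10 (Defa24, Lyz1 and Itln1), and 9 without sedentary 2 or without exercise 6 (Clca1). The share of all tested genes called lower fell as well, from 11.4% to 5.32% without exercise 7 and 5.16% without exercise 8. That share was 5.61% without exercise 9, 6.18% without exercise 10, 6.55% without exercise 6 and 8.14% without sedentary 2. Without sedentary 2 alone the fold changes of the Paneth products had a median of -4.76 and Lyz1 had -2.53. Without exercise 6 the fitted changes were -10.2 for Defa24, -9.10 for Defa30, -12.5 for Itln1 and -8.02 for Ang4. Their size is uncertain, since these 4 genes together had 9 counts in exercise 7 to 10 and Itln1 had 0.

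The balance between Paneth and goblet products differed from library to library, in both groups. The Paneth counts used were those of Defa24, Defa30, Itln1 and Ang4, leaving out Lyz1, which shares reads with the macrophage gene Lyz2. Defa24 and Defa30 share reads too, among others with alpha-defensins that are not members. The balance was taken as the share of these Paneth counts in the sum of them and the 5 goblet products, a quantity that library size does not enter. The share was 2.82% in sedentary 1 (95% exact binomial interval 2.55 to 3.12%), 19.5% in sedentary 2 (19.2 to 19.9%), 14.0% in sedentary 3 (13.2 to 14.8%), 8.06% in sedentary 4 (7.33 to 8.84%) and 19.9% in sedentary 5 (19.1 to 20.7%). In exercise 6 it was 15.3% (13.0 to 17.8%), within the sedentary range. In exercise 7, 8 and 9 it was 0.455% (0.0115 to 2.51%), 1.12% (0.366 to 2.60%) and 1.27% (0.0320 to 6.85%), from 1, 5 and 1 Paneth counts. Exercise 10 had 2 Paneth counts beside 2037 goblet counts, a share of 0.0981% (0.0119 to 0.354%), lower than in any sedentary library and than in exercise 6. Intervals cover counting error only, since PCR copies of a molecule were not marked and may be counted more than once. The division of defensin reads between copies is an estimate, and its error is not in the intervals either.

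Within the exercise group, exercise 6 and exercise 10 differed most in this balance. The goblet counts of exercise 10 were higher than those of exercise 6 (2037 against 770) and the 20 enterocyte markers were at similar sums (1041 CPM in exercise 10 and 1044 CPM in exercise 6), yet exercise 6 had 139 Paneth counts and exercise 10 had 2. Sedentary 1 and 5 also differed in this way. Sedentary 1 had 19940 CPM of enterocyte markers and 22.3 CPM of the 4 Paneth products, whereas sedentary 5 had 5415 and 92.9 CPM. Each of the 5 Paneth products, Lyz1 included, was at 0.211 to 0.333 times its sedentary 5 level in sedentary 1, and each of the 5 goblet products at 1.15 to 4.59 times.

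Relative to enterocyte markers, goblet products kept a narrower range than Defa24, Defa30, Itln1 and Ang4 together. They made up 3.71, 8.13, 5.87, 4.68 and 6.46% of goblet plus enterocyte counts in sedentary 1 to 5 and 3.95, 3.41, 2.91, 1.47 and 8.70% in exercise 6 to 10. For the goblet products exercise 10 was the highest and exercise 9 the lowest of the 10 libraries, and the groups overlapped. Of Paneth plus enterocyte counts, Defa24, Defa30, Itln1 and Ang4 made up 0.112, 2.11, 1.0, 0.428 and 1.69% in sedentary 1 to 5. In exercise 6 to 10 they made up 0.737, 0.0161, 0.0341, 0.0191 and 0.00936%, from 139, 1, 5, 1 and 2 Paneth counts. These shares were not tested, since they are built from the genes that were chosen on the contrast.

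**Figure D3:**
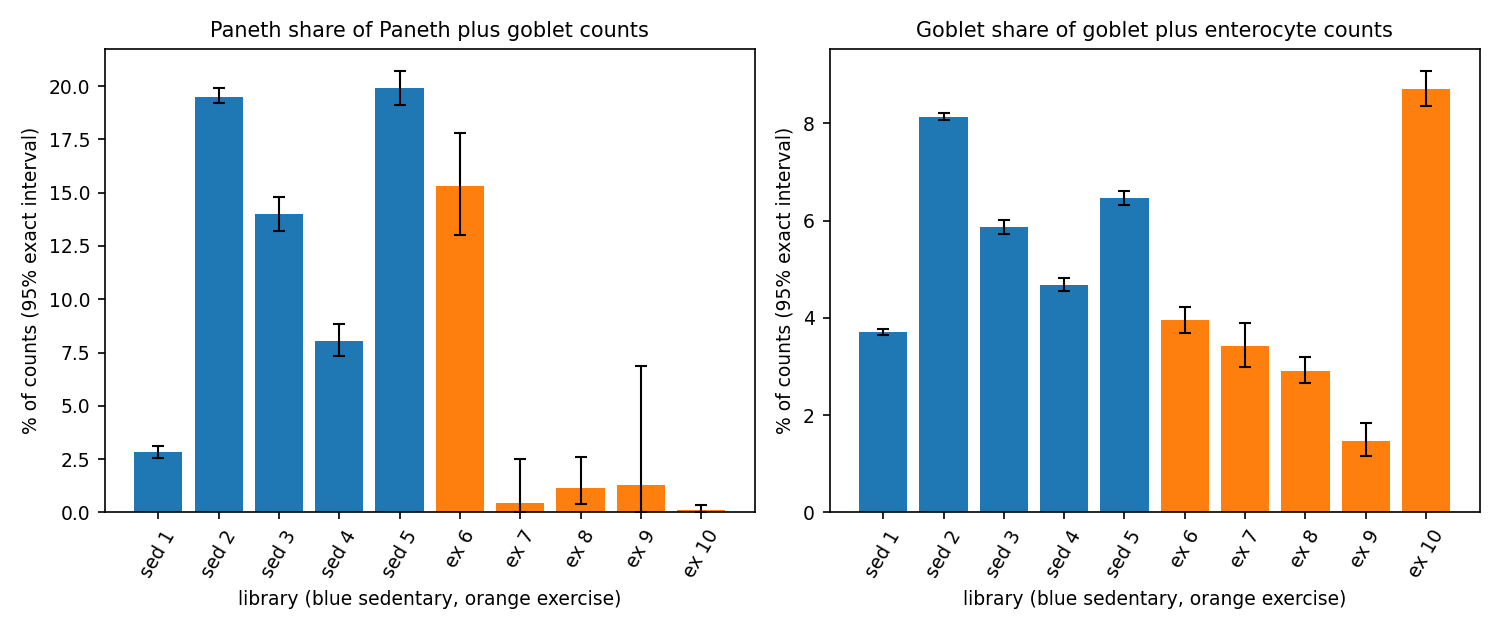
Left, counts of Defa24, Defa30, Itln1 and Ang4 as a percentage of these plus the 5 goblet products in each library; right, counts of the 5 goblet products as a percentage of these plus 20 enterocyte markers. Bars show the share with a 95% exact binomial interval (counting error only), sedentary in blue and exercise in orange; the Paneth share is 15.3% in exercise 6 and 0.0981% in exercise 10, while the goblet share of exercise 10 is the highest at 8.70%.

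Genes whose levels ran most like the members' were ranked by root mean square distance of centred log2 CPM over the 10 libraries. The 10728 candidates were other genes averaging 5 CPM or more. Genes with clone-type or accession-type names were not ranked. The defensin-related AY761184, with mean levels of 17.5 CPM in sedentary and 0.179 CPM in exercise libraries, was therefore left out. Among those ranked, nearest to the mean Paneth profile were the alpha-defensins Defa17 (distance 0.46), Defa3 (0.49) and Defa23 (0.53), which share reads with the members. Apol9a (0.63) came next, where the median gene was at 3.04. Apol9a, an apolipoprotein L gene, had 5.73, 82.5, 12.6, 7.42 and 10.6 CPM in sedentary 1 to 5 and 2.29, 0.195, 0.287, 0.193 and 0.634 CPM in exercise 6 to 10. Nearest to the mean goblet profile were Cck (0.26), the hormone cholecystokinin of enteroendocrine cells, Clrn3 (0.32) and the apolipoprotein genes Apoc3 (0.33) and Apoa1 (0.37) of chylomicrons, with a median of 2.59. Cck had 22.4, 48.6, 7.09, 4.48 and 8.36 CPM in sedentary and 1.06, 0.195, 0.747, 0 and 1.51 CPM in exercise libraries.

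Of a list of 39 other Paneth cell genes, 32 had a row and 12 could be tested, of which 5 fell, 0 rose and 7 did not pass (edgeR adjusted p under 0.05). Their median log2 fold change was -2.22, against 0 over all tested genes, of which 11.4% fell. The median depended on the setting, at -1.03 without sedentary 1 and 2 (13 tested), -3.75 without exercise 9 (13 tested), -4.15 without the filter (27 tested) and -4.18 in DESeq2 (22 tested). Those that fell were the alpha-defensins Defa3, Defa17, Defa23 and Defa36 and the defensin-related AY761184. Defa23, the most abundant of them, had 3.46, 153, 12.5, 3.58 and 23.9 CPM in sedentary and 1.56, 0, 0.115, 0 and 0 CPM in exercise libraries (log2 fold change -6.81 ± 1.56 SE, edgeR adjusted p = 0.0194). All 5 share 31-base windows with Defa24 or Defa30, so their counts are not independent of those genes. All 5 were also at most 2.06 CPM in exercise 6 and at most 0.13 CPM in exercise 7 to 10. They passed the filter on low counts through the sedentary group, so a call of higher was not open to them. The 5 are therefore given as a description.

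The 7 genes that did not pass are outside the defensin family. The antimicrobial lectin genes Reg3g and Reg3b, which the pancreas also makes, had 31.1 ± 43.0 and 3.60 ± 3.36 CPM (Reg3g, edgeR adjusted p = 0.0621) and 48.8 ± 77.4 and 69.0 ± 88.8 CPM (Reg3b, edgeR adjusted p = 0.733; mean ± SD, n = 5 libraries per group, sedentary first). Reg3b was high in sedentary 1 (187 CPM) and exercise 9 (226 CPM). Reg3g passed as lower in DESeq2 (adjusted p = 0.00383) and with library totals alone (edgeR adjusted p = 0.0144). It was highest in sedentary 1, at 106 CPM. Without sedentary 1 and 2 the log2 fold change of Reg3g went from -3.11 to -1.03 (edgeR adjusted p = 0.341). That of Reg3b went from 0.50 to 2.52 (edgeR adjusted p = 0.106). Copz2, of the vesicle coat, had 22.3 ± 9.62 and 38.9 ± 7.67 CPM (edgeR adjusted p = 0.0967). The list's count of genes that fell was 1 without exercise 7, 8 or 9 and 2 without exercise 10. In those fits 5.32, 5.16, 5.61 and 6.18% of all tested genes fell.

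Other goblet cell genes changed in both directions. Of 40, 33 could be tested, of which 12 fell, 3 rose and 18 did not pass, where 11.4% of all tested genes fell. The list had a median log2 fold change of -0.56, against 0 over all tested genes. The list's median was -0.11 without sedentary 1 and 2, -0.26 without sedentary 2, -0.96 without the filter and -1.22 in DESeq2. Those that fell included Clca3b (-6.47), of the Clca1 family, the guanylin gene Guca2a (-6.33), the small secreted inhibitor gene Spink4 (-5.68), and Nlrp6 (-5.13) and Ern2 (-5.13), the last encoding the stress sensor IRE1-beta of mucus-secreting cells. Clca4b, a gene of the same family as Clca1 on chromosome 3, fell from 148 ± 115 to 7.15 ± 5.29 CPM (mean ± SD, n = 5 each, edgeR adjusted p = 0.00901). Klf4, Bcas1, Lrrc26, Creb3l4, Sytl2 and Rep15 completed the 12. Without sedentary 1 and 2, Sytl2 and Lrrc26 did not pass (edgeR adjusted p = 0.168 and 0.0803), and without the filter Sytl2 did not (edgeR adjusted p = 0.0504). These examples and the genes that rose, apart from the most abundant ones, were picked after their values were seen. Clca3b, Guca2a, Spink4 and Ern2 were at most 2.23 CPM in exercise 6 and at most 0.689 CPM in exercise 7 to 10. They too passed the filter on low counts through the sedentary group, so a call of higher was not open to them.

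The genes of the list that rose were Zg16, Foxa3 and Ccl9, in a fit where 2.44% of all tested genes rose. Which cells their RNA came from was not tested. Zg16, a lectin known from the zymogen granules of pancreatic acinar cells as well as from goblet cells, had 2322, 1742, 1612, 1770 and 1304 CPM in sedentary and 5389, 2874, 2774, 6128 and 2277 CPM in exercise libraries (log2 fold change 1.15 ± 0.33 SE, edgeR adjusted p = 0.0418). Exercise 10 lay just below sedentary 1, so the groups overlapped, and the gene did not pass without the filter on low counts (edgeR adjusted p = 0.0584). Foxa3, a forkhead transcription factor of endodermal organs, rose from 8.0 ± 2.01 to 23.2 ± 9.77 CPM, and the chemokine gene Ccl9 from 10.2 ± 4.24 to 33.9 ± 17.4 CPM (mean ± SD, n = 5 each, edgeR adjusted p = 0.00976 and 0.0182). The other abundant members, Sytl4 (97.8 and 245 CPM), Txndc5 (162 and 138 CPM) and Tspan13 (126 and 142 CPM), were not past the threshold (edgeR adjusted p = 0.111, 0.245 and 0.459). Without sedentary 1 and 2, where Sytl4 had 15.3 and 39.3 CPM, Sytl4 passed as higher in exercise (log2 fold change 0.78, edgeR adjusted p = 0.00331), and with library totals alone Txndc5 passed as lower (-0.56, edgeR adjusted p = 0.0342). The count that fell was 7 without exercise 7, 8 or 9, where 5.32, 5.16 and 5.61% of all tested genes fell. Atoh1, the transcription factor that commits intestinal cells to the secretory lineage, was too low to be tested, at 6.00 CPM in sedentary 2 and at most 1.37 CPM elsewhere.

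Of 15 other mucins and trefoil factors, 11 had a row and 5 could be tested. Of these 3 fell, 0 rose and 2 did not pass, where 11.4% of all tested genes fell. Their median log2 fold change was -3.30 (-1.95 without sedentary 1 and 2, -1.39 in DESeq2). The membrane mucins of the intestinal brush border fell, Muc13 from 692 ± 625 to 27.9 ± 18.4 CPM and Muc3 from 604 ± 804 to 30.4 ± 24.9 CPM (mean ± SD, n = 5 each, edgeR adjusted p = 0.00907 and 0.0178), as did Muc3a (log2 fold change -3.30). Muc1, a membrane mucin of pancreatic ducts among other epithelia, had 23.1 ± 12.1 and 32.7 ± 13.3 CPM, not past the threshold (edgeR adjusted p = 0.348). Muc3a was at most 0.446 CPM in exercise libraries and passed the filter on low counts through the sedentary group. The list's count of genes that fell was 1 without exercise 7 or 8 and 2 without exercise 9. In those fits 5.32, 5.16 and 5.61% of all tested genes fell.

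The trefoil genes lie side by side on chromosome 17 but differed in where they were high. Tff3, of goblet cells, was highest in sedentary 2 at 259 CPM. Tff1, of the stomach surface, had 496 CPM in sedentary 1 and at most 2.83 CPM in any other library, as had the stomach mucin Muc5ac with 107 CPM in sedentary 1 and at most 0.382 CPM elsewhere. Both were picked after their values were seen and passed no filter for testing. Tff2, made by mucous neck cells of the stomach and by the glands of the duodenum, had 313, 1567, 398, 236 and 430 CPM in sedentary and 697, 281, 269, 563 and 220 CPM in exercise libraries, and did not pass (log2 fold change -0.54, edgeR adjusted p = 0.481; without sedentary 1 and 2 it was 0.22, adjusted p = 0.752). Tff1 and Muc5ac were thus high in sedentary 1 and low in sedentary 2, the library where the Paneth products were highest.

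**Figure D4:**
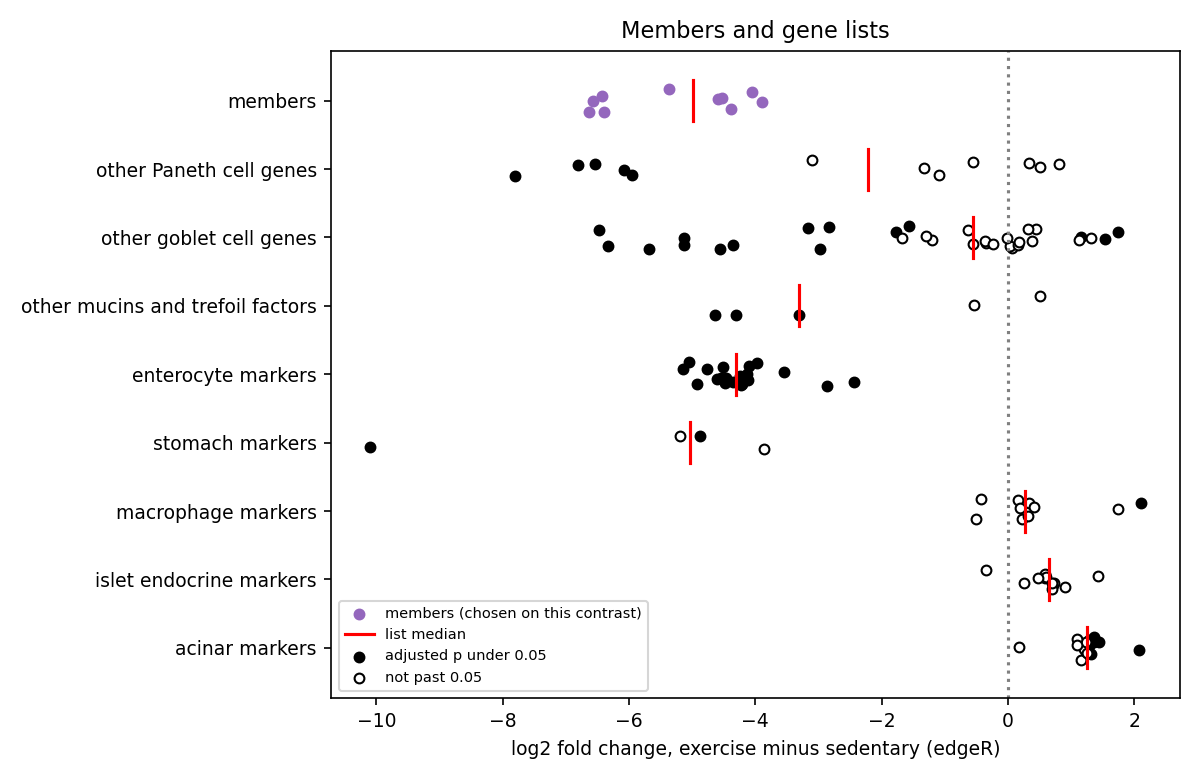
Log2 fold changes (exercise minus sedentary, edgeR) of the 10 genes chosen on this contrast (purple) and of the tested genes of 8 lists; filled points passed an adjusted p of 0.05, open points did not, and red bars are medians. The medians are -4.98 for the 10 genes, -2.22 for other Paneth, -0.56 for other goblet genes and -3.30 for mucins and trefoil factors. They are -4.30 for enterocyte, -5.03 for stomach, 0.26 for macrophage (-0.11 with library totals alone), 0.65 for islet endocrine and 1.25 for acinar markers. Without sedentary 1 and 2 these marker medians are -3.04 for enterocyte, -3.10 for stomach, -0.09 for macrophage, 0.11 for islet endocrine and 1.38 for acinar markers.

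RefSeq promoters (GRCm38.p6) were matched for 7 of the 10 genes, and the 250 bases before the start site were searched on both strands for 4 short motifs that do not overlap in the printed windows. The string TATAAA of the TATA box was found, at any position in the window, in 2 of the 7 genes and in 12.4% of all 32851 promoters. The core of TCF/LEF sites, searched as TCAAAG, was found in 1 of the 7 and in 13.8% of all; TCF factors act in Wnt signalling, on which Paneth cells depend. A CDX-like site, searched as TTTATGG and named for the intestinal CDX factors, was found in 2 of the 7 and in 2.43% of all. An E-box, searched as CAGCTG, was found in 2 of the 7 and in 13.0% of all. The promoters of 1 Paneth and 1 goblet gene that hold 2 of the motifs each are printed with motifs in capitals, Defa30 at chr8:21134400-21134649 on the plus strand and Muc2 at chr7:141690090-141690339 on the plus strand.
Defa30: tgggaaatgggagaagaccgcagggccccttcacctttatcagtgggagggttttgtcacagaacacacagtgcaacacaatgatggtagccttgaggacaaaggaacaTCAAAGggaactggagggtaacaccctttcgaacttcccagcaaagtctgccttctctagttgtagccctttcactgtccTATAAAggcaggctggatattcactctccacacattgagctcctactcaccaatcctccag
Muc2: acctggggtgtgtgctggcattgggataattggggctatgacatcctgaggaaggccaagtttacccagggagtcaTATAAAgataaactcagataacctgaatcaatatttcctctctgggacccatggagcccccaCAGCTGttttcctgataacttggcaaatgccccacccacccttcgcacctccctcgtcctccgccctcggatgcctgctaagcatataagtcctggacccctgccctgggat
Defa30 held the TCF/LEF core 141 bases and the TATAAA string 61 bases before the start. Muc2 held the TATAAA string 174 bases and the E-box 112 bases before its start. Whether either TATAAA match serves as a TATA box was not tested. The CDX-like motif was found in its reverse form in Itln1 and Agr2, and the E-box also in Fcgbp, while Lyz1 and Ang4 held none of the 4. No motif was held by all promoters of either cell type.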

How the data were processed

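RNA-seq was done on 10 islet libraries, 5 sedentary and 5 exercise, grouped by their labels. Per the labels' protocols, islet RNA was purified on RNeasy Micro columns and made into TruSeq Stranded mRNA libraries. The deposited table holds the authors' estimated counts per Ensembl gene; the submitters' processing notes list the tools fastp and kallisto, without versions. Genome build and annotation: not given in the sources used here. Non-whole values made up 12.3%, and estimated counts were rounded. Symbols were matched for 98.3% of the 28053 rows with a count. No pair of libraries agreed within sampling noise (smallest chi-square per degree of freedom 8.72 over 45 pairs).

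Genes were tested in R 4.3.3 with edgeR 4.0.16 (quasi-likelihood test, filter with minimum count 10 and minimum total 15, TMM factors between 0.670 and 1.20, Benjamini-Hochberg adjusted p under 0.05, log2 CPM with prior count 2). The step was tested on simulated data. Alternatives were RLE size factors, library totals, no filter, DESeq2 1.42.0, the libraries without sedentary 1 and 2, and leaving out each library. Named genes were the 10 members, the summed defensin rows, the 4 most abundant tested genes of each other list and the 4 nearest profiles. The members, lists and alternatives were chosen with earlier results of these data known. Some genes of the lists are not analysed here.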

Additional observations from a re-analysis of the deposited data

Results flagged for a closer look

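In 24 sets of 5 library values (each of the 10 genes in each group, and both shares), 16 had a highest library far from the others. Such sets were flagged where the gap to the next over the whole range was above 0.710. For independent, normally spread sets chance gives about 1 in 20. These values are skewed and the sets share libraries and, for Defa24 and Defa30, reads, so the 16 are not compared with that rate. In the sedentary group the highest library was sedentary 2 in all 9 flagged sets. These were Defa24 at 288 CPM, Defa30 at 137, Lyz1 at 505, Itln1 at 154, Ang4 at 20.6, Tff3 at 259, Fcgbp at 1408, Clca1 at 303 and Agr2 at 239 CPM. Sedentary 2 was the highest library of Muc2 too, but sedentary 1 lay nearer to it. In the exercise group, exercise 6 stood apart for Defa24 at 3.68 CPM, Defa30 at 1.51, Itln1 at 2.34, Ang4 at 0.223 and Agr2 at 4.18 CPM. It also stood apart for the Paneth share of Paneth plus goblet counts, at 15.3%. Exercise 10 stood apart for Clca1 at 24.7 CPM.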

How the results depend on the processing

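All 10 genes kept a lower fitted level in exercise under each alternative run. Library totals alone moved the median of all tested genes by -0.339 on the log2 scale. With them 4387 genes were lower (28.7% of those tested), 159 higher and 19 of 33 other goblet genes lower. DESeq2 gave 2829 lower (14.3%), 963 higher and 10 of 22 other Paneth genes lower. Without the filter, 5 of 11 mucins and trefoil factors were lower, where 6.2% of tested genes were. Without sedentary 1 and 2, 644 genes were higher (4.1%). Leaving out 1 library at a time gave 800 to 2721 genes lower (5.16 to 17.7% of those tested) and 132 to 888 higher (0.847 to 5.76%). In the same fits 5 to 10 of the 10 genes were lower. So were 1 to 7 of 12 or 13 other Paneth genes, 7 to 16 of 33 or 35 other goblet genes and 1 to 4 of 5 or 6 mucins and trefoil factors. The cause was not tested. Few counts limit the Paneth products in exercise 7 to 10, where 4 of them together had 9 counts. The totals of these libraries were 16461213 to 23222563 counts, beside 15081768 to 20670048 in the sedentary libraries. No paired analysis was possible because the replicate numbers of the groups are not shared.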

Other observations

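Some crypt, Paneth and stomach genes were set beside the Paneth products by library. They were picked after their values were seen and are examples only. Gkn3, a gastrokine gene, had 7.88, 826, 127, 37.8 and 163 CPM in sedentary 1 to 5 and 26.1, 3.70, 1.78, 0.0643 and 0.195 CPM in exercise 6 to 10 (edgeR adjusted p = 0.0565). It was low in sedentary 1, where the stomach gene Pgc and Tff1 were highest, and within the exercise group it was highest in exercise 6, as were the Paneth products. Olfm4, a marker of crypt base stem cells, had 77.8, 554, 76.5, 35.5 and 84.5 CPM in sedentary and 29.2, 22, 14.8, 17.7 and 17.4 CPM in exercise libraries, and fell (edgeR adjusted p = 0.0215). Unlike the Paneth products other than Lyz1, it did not approach 0 in any exercise library. Of 5 tested crypt base markers 2 fell and 3 did not pass, where 11.4% of all tested genes fell. Mmp7, the protease that activates alpha-defensins in Paneth cells, had 1.07, 9.76, 1.61, 1.21 and 3.52 CPM in sedentary and 3.51, 0.260, 0.287, 2.51 and 0.244 CPM in exercise libraries. Its groups overlapped, with exercise 6 and 9 above 3 sedentary libraries, and it did not pass (edgeR adjusted p = 0.311).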
